A study of Mus musculus with 20 samples.

Results

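The troponin genes Tnnc1, Tnnc2, Tnni1, Tnni2, Tnni3, Tnnt1, Tnnt2 and Tnnt3 were taken by symbol from a table of 55335 genes, and all 8 were found and tested. The table holds mRNA content in 20 bulk libraries of C2C12 myotubes, the fused muscle fibres that a mouse myoblast line forms in low serum, transduced with adenovirus on day 4 of differentiation and harvested 48 h later. In the Per1 experiment, libraries 11 to 15 of myotubes given a virus with Per1 and Gfp were compared with Gfp libraries 11, 13, 14, 15 and 16. In the Per2 experiment, libraries 1 to 5 of myotubes given a virus with Per2 and Gfp were compared with Gfp libraries 1 to 5. Each group had 5 libraries, and the experiment of a Gfp library was read from its number in the labels. PER1 and PER2 are repressors of the molecular clock, and the comparison asked how their sustained excess altered muscle gene expression. Every coding sequence was driven by a CMV promoter, which is active in any transduced cell, and in the Per viruses Gfp had a CMV promoter of its own. The Per viruses were added at a higher concentration than the Gfp virus, so the effect of viral load and that of Per1 or Per2 cannot be told apart. All cultures came from the same line, and by the paper's methods the sequenced RNA was from cultures of the same experimental replicate. The p values therefore reflect differences among cultures of 1 experiment and not among repeated experiments.

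Troponin is the calcium switch of striated muscle. Troponin C binds calcium, troponin I holds the thin filament in the inhibited state at rest, and troponin T anchors the complex to tropomyosin. Slow skeletal fibres, fast skeletal fibres and the heart each use their own set of genes, except that slow fibres and the heart share troponin C. Embryonic skeletal muscle is known to use the cardiac troponin T gene as well, and the embryonic heart to use the slow troponin I gene.

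The genes lie in pairs of a troponin I beside a troponin T. Positions are those of RefSeq on GRCm38.p6. On chromosome 1, Tnni1 (135783033 to 135810989) and Tnnt2 (135836315 to 135852268) were 25.3 kb apart, with Lad1 between them. On chromosome 7, Tnnt1 (4504569 to 4515975) and Tnni3 (4518305 to 4522718) were 2.3 kb apart, and Tnni2 (142441816 to 142444410) and Tnnt3 (142498771 to 142516213) were 54.4 kb apart with Lsp1 between them. The troponin C genes stand apart from these pairs, Tnnc1 on chromosome 14 (31208312 to 31211729) and Tnnc2 on chromosome 2 (164777161 to 164779734).

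Promoter sequence is shown because PER proteins repress BMAL1 and CLOCK, which bind the E-box CACGTG, and because the myogenic factors MYOD1 and MYOG bind E-boxes of the general form CANNTG. RefSeq gave a window for 6 of the 8 genes, and the 250 bases before the transcript start are given for Tnnc1 and Tnnt1, which had the largest differences with Per1, and for Tnnc2, which had the largest with Per2. Capitals mark CANNTG, which reads the same form on either strand and includes CACGTG.
Tnnc1, chr14:31208062-31208311, plus strand: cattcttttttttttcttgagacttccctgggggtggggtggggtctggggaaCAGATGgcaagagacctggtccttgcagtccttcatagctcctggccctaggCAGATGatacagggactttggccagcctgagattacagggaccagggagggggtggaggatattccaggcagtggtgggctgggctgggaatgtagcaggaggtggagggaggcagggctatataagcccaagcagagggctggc
Tnnc2, chr2:164779735-164779984, minus strand: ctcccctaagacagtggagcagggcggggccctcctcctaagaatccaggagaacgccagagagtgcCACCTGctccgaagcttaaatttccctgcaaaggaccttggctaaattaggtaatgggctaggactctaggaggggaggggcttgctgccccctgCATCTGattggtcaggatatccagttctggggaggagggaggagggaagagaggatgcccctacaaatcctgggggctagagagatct
Tnnt1, chr7:4515976-4516225, minus strand: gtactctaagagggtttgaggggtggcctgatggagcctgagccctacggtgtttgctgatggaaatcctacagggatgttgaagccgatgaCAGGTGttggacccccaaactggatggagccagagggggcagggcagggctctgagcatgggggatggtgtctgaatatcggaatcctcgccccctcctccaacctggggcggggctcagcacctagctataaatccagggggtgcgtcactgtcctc

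CANNTG occurred in 6 of the 6 troponin windows and in 66.2% of 32841 RefSeq windows of the same length. CACGTG occurred in 0 of the 6, and in 6.02% of all windows. These matches describe letters in short windows and show no binding.

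Values are the authors' regularized log2 values (rlog, so named by the table), a log2 scale of normalised read counts on which differences are drawn toward 0. Counts were not part of the table, so sequencing depth is unknown and intervals are those of the fit. The 2 experiments had been transformed separately, since 2712 genes were 0 in every library of the Per1 experiment only and 2391 in every library of the Per2 experiment only, and each was tested alone. The targeted genes followed the labels, with Per1 at 15.22 to 15.30 rlog units with Gfp and 19.39 to 19.64 with Per1, and Per2 at 14.73 to 14.96 with Gfp and 19.65 to 19.77 with Per2. The labels call the cells myoblasts, and all 10 myotube markers listed were detected, with a summed level of 20.90 to 21.37 on a log2 scale in the Gfp libraries. In bulk RNA, fewer myotubes and less of an mRNA per myotube cannot be told apart. Gfp libraries 1 and 2 of the Per2 experiment stood apart from Gfp libraries 3 to 5 on the second principal component of all tested genes (6.27 and 4.12 against −4.48 to −3.16), and member and gene list results of that experiment are given with and without them.

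Gfp myotubes expressed the slow, fast and cardiac sets together. Levels of different genes were compared as rlog minus log2 of the transcript length in kb, and in the Gfp libraries of the Per1 experiment they ran from 18.13 for Tnnc1 through 17.43 for Tnni1, 17.26 for Tnnc2, 17.04 for Tnni2, 16.77 for Tnnt3 and 16.54 for Tnnt2 to 15.81 for Tnnt1. The ranges of neighbours in this order did not overlap, and within each library the order was the same in 5 of 5 (n = 5). Only the canonical transcript of each gene gave its length. An error in that length would be the same in every library, so these ranges and counts do not cover it. Within each subunit class the slow troponin C and slow troponin I genes were above their fast partners, while fast Tnnt3 and cardiac Tnnt2 were above slow Tnnt1. Cardiac troponin I, Tnni3, was far below the rest at 9.13 ± 0.087 (SD, n = 5).

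The order was alike in the Gfp libraries of the Per2 experiment, from 18.02 for Tnnc1 to 15.69 for Tnnt1 and 9.66 for Tnni3, except that Tnnc2 and Tnni1 changed places. In the Per1 experiment Tnni1 had been above Tnnc2 by 0.17 in the mean. There Tnnc2 (17.18) and Tnni1 (17.14) had overlapping ranges, as did Tnni2 (16.78) and Tnnt3 (16.58). Within a library, where shifts of the whole library drop out, Tnnc2 was above Tnni1 in 5 of 5 by 0.041 ± 0.022 (SD, n = 5) and Tnni2 above Tnnt3 in 5 of 5 by 0.20 ± 0.024. The limit on transcript length applies to these gaps too. Cardiac Tnnt2 was thus abundant in these myotubes. Of 8 cardiomyocyte markers 6 passed the filter on low values, and Nppa and Myl7 did not. Mean rlog of the 6 ran from 11.18 for Gata4 to 3.55 for Mybpc3 in the Gfp libraries of the Per1 experiment. In those of the Per2 experiment it ran from 11.38 to 4.16 for the same genes. The summed level of the list was 11.78 to 11.86 across the Gfp libraries of both experiments.

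**Figure D1:**
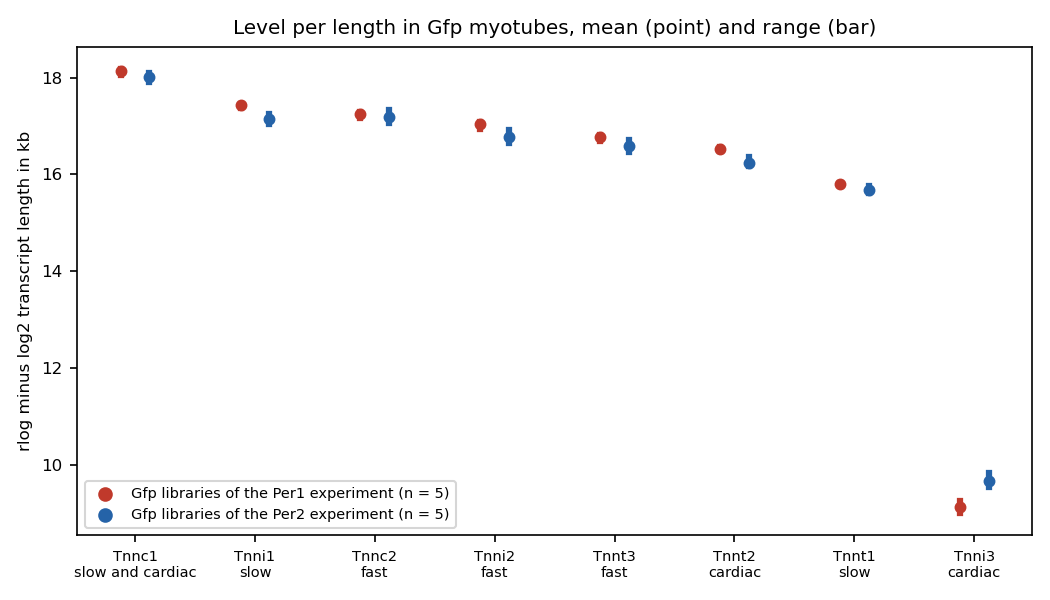
Level per length of each troponin gene (rlog minus log2 of transcript length in kb) in the 5 Gfp libraries of each experiment; points are means and bars run from the lowest to the highest library. Tnnc1 is highest near 18 and Tnni3 stands alone below 10.

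With Per1, 7 of the 8 troponin genes were lower than with Gfp and 0 were higher, by limma with a threshold of 0.05 on the adjusted p. At an unadjusted p under 0.05 the counts were again 7 and 0, and the share of all genes at that threshold is not given here. The background share called lower was 20.6% of 20559 genes tested, and 20.1% were called higher. After median centring of the libraries the split of calls over all genes moved from 4131 higher and 4232 lower to 3080 and 5912, and the troponin count was again 7, beside 28.8% of genes lower. No member reached a log2 difference of 0.5 in size, which 0.253% of genes passed downward and 0.443% upward. The median difference of the 8 genes was −0.16, beside 0.0011 over all genes tested. The exact permutation test gave those 7 genes p = 0.0159 or below (two-sided), where the smallest p that 5 against 5 allows is 0.00794, and for Tnni3 p = 0.452. It was run on members only, so it has no share of all genes beside it.

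Among the slow set, Tnnc1, the troponin C of slow fibres and heart, was at 17.64, 17.59, 17.69, 17.66 and 17.70 rlog units in Gfp libraries 11, 13, 14, 15 and 16, and at 17.41, 17.55, 17.44, 17.38 and 17.44 in Per1 libraries 11 to 15. Every Per1 library was below every Gfp library, with library 12 nearest to them. Tnnc1 fell by 0.21 (standard error 0.029, adjusted p = 3.32e-05 from limma).

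Tnnt1, the slow skeletal troponin T, was at 15.95, 15.91, 15.97, 15.93 and 15.97 in the Gfp libraries and at 15.76, 15.78, 15.74, 15.67 and 15.71 in the Per1 libraries. The groups were separated by more than the range of either, and Tnnt1 fell by 0.21 (standard error 0.021, adjusted p = 1.49e-06), the smallest adjusted p among the 8 genes.

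Tnni1, the slow skeletal troponin I, was at 17.57, 17.51, 17.58, 17.59 and 17.60 with Gfp and at 17.39, 17.51, 17.44, 17.36 and 17.43 with Per1. Gfp library 13 and Per1 library 12 lay next to each other at the edge of their groups, and all the others were clearly apart. Tnni1 fell by 0.15 (standard error 0.027, adjusted p = 0.000437).

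Among the fast set, Tnnt3, the fast skeletal troponin T, was at 17.56, 17.50, 17.60, 17.60 and 17.63 with Gfp and at 17.36, 17.44, 17.40, 17.32 and 17.39 with Per1, again without overlap. It fell by 0.20 (standard error 0.027, adjusted p = 4.14e-05). Tnnc2, the fast troponin C, was at 16.84, 16.76, 16.89, 16.85 and 16.88 with Gfp and at 16.64, 16.80, 16.68, 16.58 and 16.69 with Per1, where library 12 rose above Gfp library 13 and the other 4 were below all Gfp libraries. Tnnc2 fell by 0.17 (standard error 0.035, adjusted p = 0.00133).

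Tnni2, the fast skeletal troponin I, followed the same pattern, at 16.56, 16.49, 16.62, 16.61 and 16.64 with Gfp and at 16.40, 16.54, 16.44, 16.34 and 16.43 with Per1. Library 12 was again the only Per1 library inside the Gfp range, and Tnni2 fell by 0.15 (standard error 0.035, adjusted p = 0.00267).

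The cardiac genes parted from each other. Tnnt2, the cardiac troponin T, was at 17.37, 17.31, 17.38, 17.36 and 17.40 with Gfp and at 17.22, 17.29, 17.24, 17.19 and 17.26 with Per1, without overlap, and fell by 0.12 (standard error 0.022, adjusted p = 0.000353). Tnni3, the cardiac troponin I, was at 8.88, 9.00, 9.01, 9.12 and 9.02 with Gfp and at 9.03, 9.17, 9.13, 8.98 and 8.97 with Per1, with overlapping groups. Its log2 difference of 0.049 had a 95% interval from −0.054 to 0.15 (adjusted p = 0.453).

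Transcripts of Tnni3 shared 327 sequences of 31 bases, 11.1% of its total, with Dnaaf3, the gene that overlaps it on the same strand and encodes a factor for dynein arm assembly. Dnaaf3 rose with Per1 by 0.30 (standard error 0.035, adjusted p = 8.93e-06), and how the authors' counting divided reads between them was not tested. Genes on the other strand overlap Tnnc1 (Nisch), Tnnc2 (Ube2c), Tnnt1 (Gm73143) and Tnnt3 (Prr33), and the sources used here do not say whether counting used strand. The groups did not overlap for 5 of the 8 members, all lower with Per1 (Tnnc1, Tnni1, Tnnt1, Tnnt2 and Tnnt3), where 15.0% of all genes tested were lower without overlap.

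**Figure D2:**
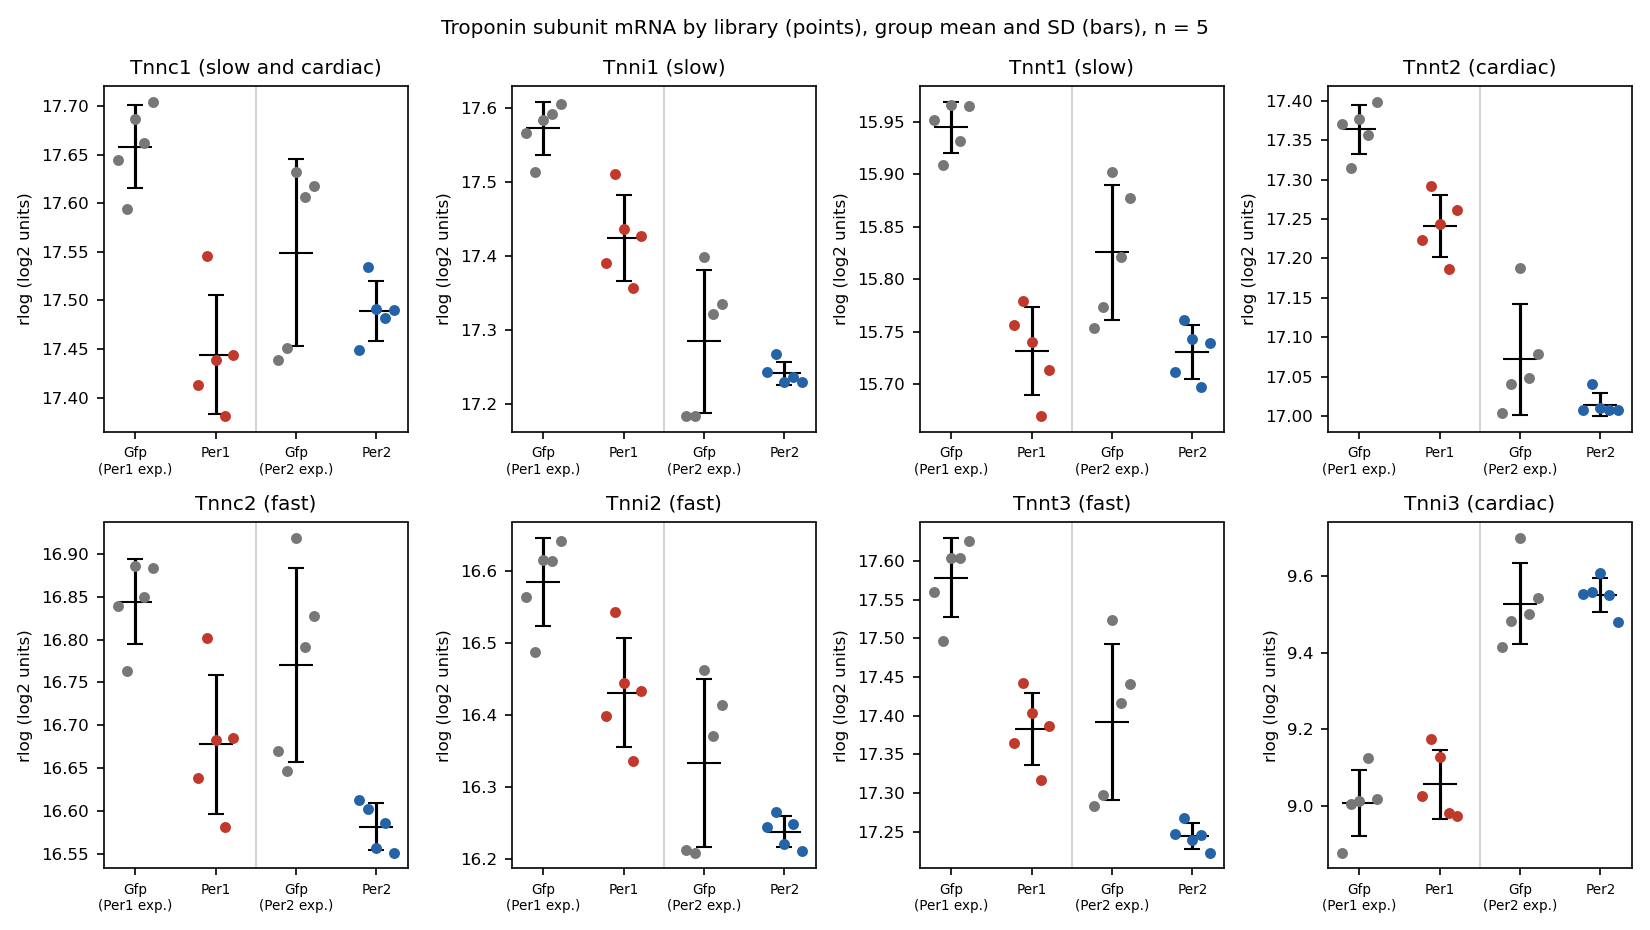
rlog value (log2 units) of each troponin gene in every library, with points for libraries and bars for the group mean and SD (n = 5); each panel has its own vertical axis, which does not start at 0, and a line separates the experiments. All 5 Per1 libraries lie below all 5 Gfp libraries for Tnnc1, Tnni1, Tnnt1, Tnnt2 and Tnnt3, and Gfp libraries of the Per2 experiment are spread more widely than Per2 libraries.

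With Per2, 3 of the 8 genes were lower by limma at the adjusted p (Tnnc2, Tnnt3 and Tnnt1) and 0 were higher, beside a background of 17.5% of 20628 genes lower and 18.6% higher. Median centring changed the split over all genes from 3842 higher and 3600 lower to 2765 and 5118, and raised the troponin count to 5, beside 24.8% of genes lower. With no filter on low values, over 55335 genes, the count was 0, with unchanged differences and an adjusted p of 0.0504 for Tnnc2, 0.0809 for Tnnt3 and 0.0957 for Tnnt1, beside 4.91% of genes lower and 5.02% higher. No member passed a log2 difference of 0.5, which 0.296% of genes passed downward and 0.325% upward. At an unadjusted p under 0.05 the counts were 4 lower (with Tnni2) and 0 higher, again without a share of all genes. The median difference of the 8 genes was −0.077, beside 0.0006 over all genes.

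The clearest member was the fast troponin C gene. Tnnc2 was at 16.67, 16.65, 16.92, 16.79 and 16.83 in Gfp libraries 1 to 5 and at 16.61, 16.60, 16.56, 16.59 and 16.55 in Per2 libraries 1 to 5. Every Per2 library was below every Gfp library, although Gfp libraries 1 and 2 came close, and Tnnc2 fell by 0.19 (standard error 0.042, adjusted p = 0.0027 from limma).

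Tnnt3 was at 17.28, 17.30, 17.52, 17.42 and 17.44 with Gfp and at 17.25, 17.27, 17.24, 17.25 and 17.22 with Per2. The groups did not overlap, and Tnnt3 fell by 0.15 (standard error 0.037, adjusted p = 0.00672). Tnnt1 was at 15.75, 15.77, 15.90, 15.82 and 15.88 with Gfp and at 15.71, 15.76, 15.74, 15.70 and 15.74 with Per2, where Per2 library 2 lay above Gfp library 1. It fell by 0.095 (standard error 0.027, adjusted p = 0.0133), a call that was lost after quantile normalization (−0.058, adjusted p = 0.0815).

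Tnni2 was at 16.21, 16.21, 16.46, 16.37 and 16.41 with Gfp and at 16.24, 16.26, 16.22, 16.25 and 16.21 with Per2, so that the Per2 libraries sat on the level of Gfp libraries 1 and 2. Its difference was −0.096 (95% interval −0.19 to −0.0048, adjusted p = 0.0943). Tnnc1 showed the same picture, at 17.44, 17.45, 17.63, 17.61 and 17.62 with Gfp and at 17.45, 17.53, 17.49, 17.48 and 17.49 with Per2, a difference of −0.060 (95% interval −0.14 to 0.019, adjusted p = 0.232).

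For Tnni1 the values were 17.18, 17.19, 17.40, 17.32 and 17.34 with Gfp and 17.24, 17.27, 17.23, 17.24 and 17.23 with Per2, a difference of −0.043 (95% interval −0.12 to 0.034, adjusted p = 0.385). Cardiac Tnnt2 was at 17.00, 17.04, 17.19, 17.05 and 17.08 with Gfp and 17.01, 17.04, 17.01, 17.01 and 17.01 with Per2, a difference of −0.057 (95% interval −0.12 to 0.0027, adjusted p = 0.128). Tnni3 was at 9.41, 9.48, 9.70, 9.50 and 9.54 with Gfp and at 9.55, 9.56, 9.61, 9.55 and 9.48 with Per2, and the difference of 0.022 (95% interval −0.074 to 0.12, adjusted p = 0.747) took the other sign without Gfp libraries 1 and 2. Dnaaf3, which overlaps Tnni3, rose with Per2 by 0.33 (standard error 0.030, adjusted p = 1.49e-06).

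Gfp libraries 1 and 2 were below Gfp libraries 3, 4 and 5 for 8 of the 8 members, by 0.083 (Tnnt2) to 0.21 (Tnni2) in the mean. The share of all genes with this order is not given here, and these libraries also stood apart on the second principal component of all tested genes. Gfp libraries 1 and 2 were left out after seeing the data. Leaving out the lowest Gfp libraries moves each member's difference downward by construction, so the calls that follow are a description and no independent support. Without Gfp libraries 1 and 2, 7 members were lower with Per2 at the adjusted p, all but Tnni3, beside 17.5% of all genes lower. The troponin C genes were then at −0.26 (Tnnc2, adjusted p = 2.42e-05) and −0.13 (Tnnc1, adjusted p = 0.000233), and the troponin I genes at −0.18 (Tnni2, adjusted p = 7.0e-05) and −0.11 (Tnni1, adjusted p = 0.000786). The troponin T genes were at −0.22 (Tnnt3, adjusted p = 2.94e-05), −0.14 (Tnnt1, adjusted p = 0.000415) and −0.091 (Tnnt2, adjusted p = 0.0188). Without Gfp library 1 alone 5 members were lower, beside 17.1% of all genes. Gfp library 3 was the highest Gfp library for 8 of the 8 members, again without a share of all genes. Without it alone the differences were smaller in size for the 7 genes other than Tnni3. They included −0.039 for Tnnc1, −0.015 for Tnni1, −0.064 for Tnni2 and −0.028 for Tnnt2. Then 3 members were lower, beside 17.0% of all genes. In the exact permutation test over all 10 libraries, 3 members reached p = 0.0159 or below (two-sided). This test was run on members only, so no share of all genes stands beside that count. The groups did not overlap for 2 members, Tnnc2 and Tnnt3, and 12.8% of all genes tested were lower without overlap.

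**Figure D3:**
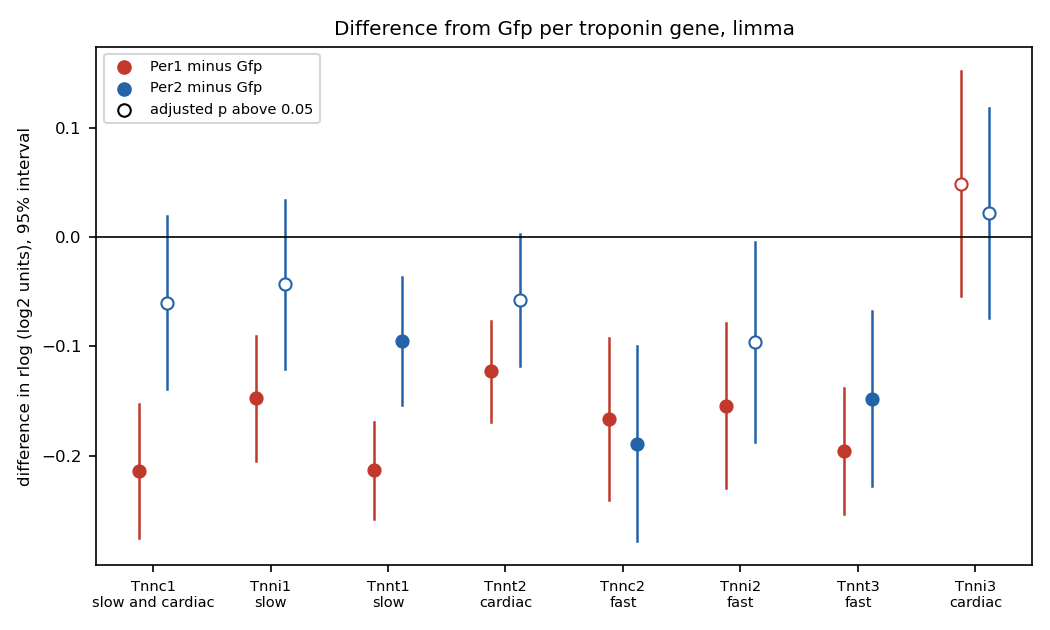
Difference in rlog (log2 units) between Per and Gfp libraries for each troponin gene, Per1 in red and Per2 in blue, with the 95% interval from limma; filled points passed the threshold of 0.05 on the adjusted p. With Per1, 7 points are filled and below 0, and with Per2, 3 are (Tnnt1, Tnnc2 and Tnnt3).

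Set side by side, the slow troponin C gene was at −0.21 with Per1 and −0.060 with Per2, and the fast troponin C gene at −0.17 and −0.19. Slow troponin I was at −0.15 and −0.043, fast troponin I at −0.15 and −0.096, slow troponin T at −0.21 and −0.095, and fast troponin T at −0.20 and −0.15. The experiments have separate controls and separately made values, and the difference between the effects was not tested.

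Differences between isoforms within a library do not move with factors that scale a whole library, and are given as descriptions with no test. Tnnc1 minus Tnnc2 was 0.81 ± 0.012 (SD, n = 5) with Gfp and 0.77 ± 0.022 with Per1. The groups did not overlap but nearly touched (0.8004 to 0.8308 against 0.744 to 0.7999). Under quantile normalization the Per1 difference in this balance took the other sign, from −0.047 to 0.018. In the Per2 experiment the balance was higher, from 0.78 ± 0.040 with Gfp to 0.91 ± 0.043 with Per2 (0.71 to 0.82 against 0.84 to 0.94), and it was higher under each alternative run.

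For troponin I, Tnni1 minus Tnni2 was 0.99 ± 0.026 with Gfp and 0.99 ± 0.019 with Per1, with groups that overlapped almost fully. With Per2 it was 1.00 ± 0.012 against 0.95 ± 0.023 with Gfp, and these groups did not overlap. Tnni3 minus Tnni2 was higher by 0.20 with Per1 and by 0.12 with Per2, with overlap in the Per2 experiment only. Without Gfp libraries 1 and 2 the Per2 differences were 0.068 for Tnni1 minus Tnni2 and 0.15 for Tnni3 minus Tnni2. For Tnni3 minus Tnni2, Gfp libraries 3 to 5 (−6.87 to −6.76) lay below all Per2 libraries (−6.73 to −6.61).

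For troponin T, cardiac minus fast (Tnnt2 minus Tnnt3) rose in the same direction in both experiments without overlap, from −0.21 ± 0.0275 to −0.14 ± 0.014 with Per1 and from −0.32 ± 0.049 to −0.23 ± 0.0095 with Per2. Slow minus fast (Tnnt1 minus Tnnt3) overlapped between groups in both experiments, at −1.63 ± 0.035 with Gfp and −1.65 ± 0.025 with Per1, and at −1.57 ± 0.042 with Gfp and −1.51 ± 0.027 with Per2. Without Gfp libraries 1 and 2 the Per2 difference in slow minus fast was 0.079 instead of 0.053. Gfp libraries 3 to 5 (−1.62 to −1.56) then lay below all Per2 libraries (−1.55 to −1.48). The Per2 differences were then 0.12 for cardiac minus fast and −0.046 for slow minus cardiac. Slow minus cardiac (Tnnt1 minus Tnnt2) was lower with Per1 without overlap, from −1.42 ± 0.011 to −1.51 ± 0.029. In the Per2 experiment it was −1.25 ± 0.033 with Gfp and −1.28 ± 0.019 with Per2, with overlap, and that difference of −0.038 took the other sign under quantile normalization (0.011).

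**Figure D4:**
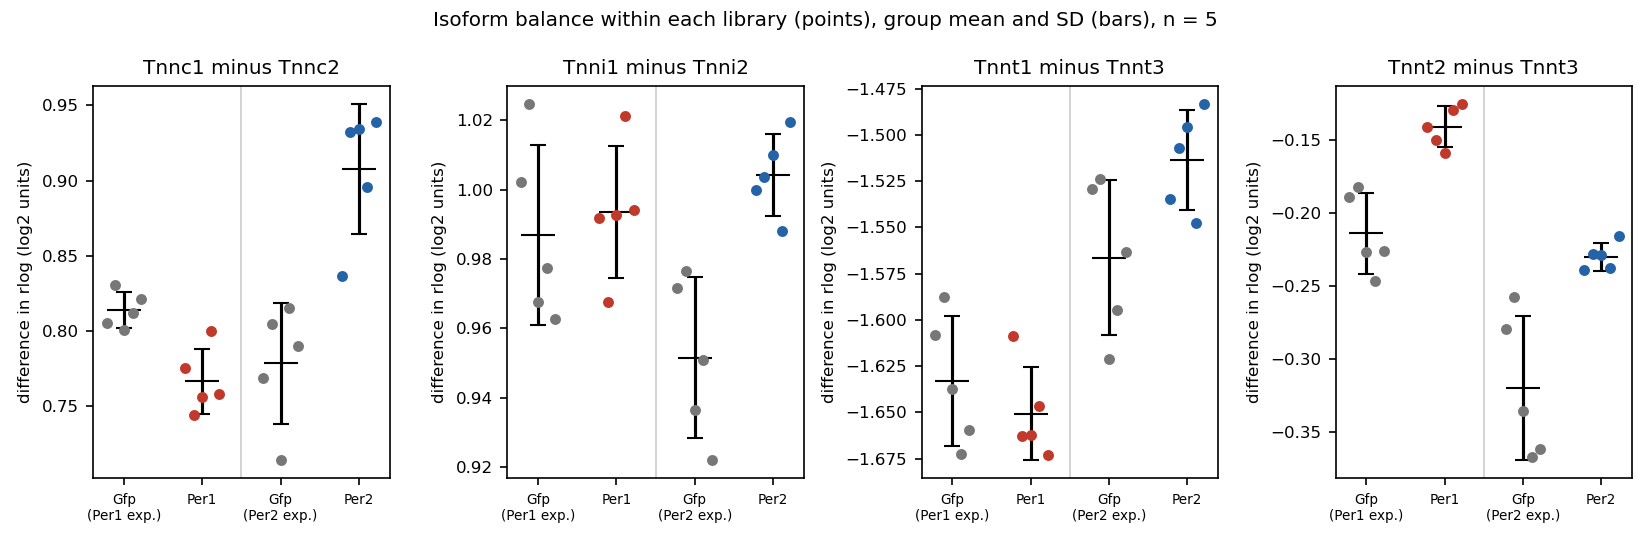
Difference in rlog (log2 units) between isoforms of the same subunit within each library, for troponin C, I and T, with points for libraries and bars for the group mean and SD (n = 5); each panel has its own axis, which does not start at 0. Tnnc1 minus Tnnc2 is lower with Per1 (0.77 against 0.81; under quantile normalization, not plotted, this difference has the other sign, 0.018) and higher with Per2 (0.91 against 0.78).

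The members other than Tnni3 varied together from library to library. Over the 10 libraries of the Per1 experiment, Pearson's r was 0.89 to 0.99 for the 21 pairs without Tnni3 and −0.18 to 0.13 for the 7 pairs with it. In the Per2 experiment the ranges were 0.78 to 0.99 and 0.37 to 0.69. These values are descriptions of libraries that share groups and normalisation.

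The non-member genes most like each member, ranked by the smaller r of the experiments among 19966 genes, are given with r in the Per1 and then the Per2 experiment. Mylpf, the fast regulatory light chain, was nearest to Tnnc1 (0.978 and 0.976) and to Tnni1 (0.982 and 0.976), followed for both by Myoz2, a calcineurin-binding Z-disc protein (0.967 and 0.973 for Tnnc1, 0.965 and 0.965 for Tnni1). Klhl41, a sarcomere-associated kelch protein, was nearest to Tnnt3 (0.981 and 0.998), and Lmod2, a thin filament leiomodin, to Tnnt1 (0.983 and 0.972), with Art1 (0.975 and 0.964) next. Tnnt2 had Lmod3 (0.945 and 0.939) and Eno3, the muscle enolase (0.981 and 0.924), and Tnni2 had Myl4, the embryonic and atrial light chain (0.981 and 0.957), and Eno3 (0.956 and 0.968).

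Tnnc2 was nearest to Acaa2, a mitochondrial thiolase (0.983 and 0.98), and Ly6a2 (0.954 and 0.956), and Acaa2 came second for Tnnt3 as well (0.975 and 0.97). Tnni3 had looser neighbours, Coa4 (0.907 and 0.833) and the linker histone gene H1f0 (0.782 and 0.783).

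The other genes of the thin filament moved in both directions. Counts of this and the following lists stand beside all genes tested, of which 20.6% were lower and 20.1% higher with Per1. With Per2 these shares were 17.5% and 18.6%, and without Gfp libraries 1 and 2 they were 17.5% and 18.3%. Of 14 partners tested with Per1, 7 were lower and 3 higher, with a median of −0.096. Neb, which encodes the filament ruler nebulin, fell by 0.31 (standard error 0.035), the filament nucleator Lmod3 by 0.23 (standard error 0.022), Xirp1, an actin-binding repeat protein, by 0.22 (standard error 0.030), Nrap, an anchoring protein of forming myofibrils, by 0.18 (standard error 0.025), and Tpm2, the tropomyosin beta chain to which troponin T binds, by 0.18 (standard error 0.018). Nebl, which encodes the nebulin-like protein nebulette, rose by 0.48 (standard error 0.041, adjusted p = 5.11e-07). Tpm1 (−0.052, adjusted p = 0.0644) and the cardiac actin gene Actc1 (−0.048, adjusted p = 0.253) did not pass the test.

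With Per2, 5 of the 14 partners were lower and 3 higher, with a median of −0.029. Tmod4, the skeletal muscle tropomodulin that caps the filament, fell by 0.18 (standard error 0.046), Xirp1 by 0.17 (standard error 0.027), Neb by 0.14 (standard error 0.046) and Lmod2 by 0.14 (standard error 0.028), and Nebl rose by 0.27 (standard error 0.031, adjusted p = 1.06e-05). The skeletal actin gene Acta1 (−0.023, adjusted p = 0.532) and Tpm2 (−0.034, adjusted p = 0.314) did not pass. Without Gfp libraries 1 and 2 the counts were 4 lower and 3 higher (median −0.047), and Neb no longer passed (−0.12, adjusted p = 0.0957).

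Slow fibre genes other than the troponins were lower for 11 of 14 and higher for 2 of 14 with Per1 (median −0.18). Myl2, the slow and ventricular regulatory light chain, fell by 0.38 (standard error 0.038), Ankrd2, a stretch-responsive ankyrin protein, by 0.25 (standard error 0.039), Casq2, the calcium buffer of slow and cardiac sarcoplasmic reticulum, by 0.23 (standard error 0.019), and Mb, myoglobin, by 0.21 (standard error 0.057). Sln, a small inhibitor of the calcium pump with a low level here, rose by 0.42 (standard error 0.027, adjusted p = 2.17e-08).

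With Per2, 5 of the 14 slow fibre genes were lower and 2 higher (median −0.045). Mb fell by 0.32 (standard error 0.058) and Mybpc1, the slow myosin-binding protein C, by 0.30 (standard error 0.070), while Myh7, the slow myosin heavy chain, rose by 0.19 (standard error 0.049, adjusted p = 0.008). The counts were 7 lower and 2 higher without Gfp libraries 1 and 2 (median −0.058). Myh7 fell by 0.19 with Per1 (standard error 0.038, adjusted p = 0.00117), and the difference between these effects was not tested.

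Fast fibre genes were lower for 11 of 14 with Per1 (median −0.18) and 7 of 14 with Per2 (median −0.10), and 0 were higher in either experiment by limma, at the adjusted p or at an unadjusted p under 0.05. Casq1, the fast fibre calcium buffer, fell by 0.48 (standard error 0.034) in Per1 overexpressing myotubes and by 0.23 (standard error 0.047) in Per2 overexpressing myotubes. Myh4, the fastest myosin heavy chain, fell by 0.37 with Per1 (standard error 0.044). Myh1 and Myh2, fast myosin heavy chains, fell by 0.29 and 0.29 with Per1 (standard errors 0.031 and 0.032) and by 0.44 and 0.40 with Per2 (standard errors 0.035 and 0.040). Ckm, the muscle creatine kinase, did not pass in either (−0.041, adjusted p = 0.267, and −0.072, adjusted p = 0.188). Without Gfp libraries 1 and 2, 9 of the 14 were lower with Per2 and 0 higher, also at an unadjusted p (median −0.15), and Ckm was among them (−0.14, adjusted p = 0.00236).

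Of 10 embryonic, neonatal and cardiac muscle genes tested, 5 were lower with Per1 and 0 higher by limma (6 and 0 at an unadjusted p under 0.05, median −0.12), and 1 was lower and 3 were higher with Per2 (median 0.025). Ankrd1, a cardiac and stress-responsive ankyrin protein, and Myl4 fell by 0.23 and 0.23 with Per1 (standard errors 0.018 and 0.035). Myh3, the embryonic myosin heavy chain, fell by 0.18 with Per1 (standard error 0.023), and rose by 0.11 with Per2 (standard error 0.038, adjusted p = 0.0357). Myh8, the neonatal myosin heavy chain, fell by 0.31 with Per2 (standard error 0.059, adjusted p = 0.000874). Without Gfp libraries 1 and 2, 3 of the 10 were lower and 2 higher (median −0.016), and Myh3 no longer passed (0.10, adjusted p = 0.11).

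Regulators of muscle and fibre type genes were lower for 13 of 24 and higher for 3 of 24 with Per1 (median −0.088). Mef2c and Mef2d, MEF2 factors that act on muscle promoters, fell by 0.39 and 0.23 (standard errors 0.033 and 0.027), Tbx15, a T-box factor of fast fibres, by 0.22 (standard error 0.019) and Tead4, which binds MCAT elements of troponin T and other muscle genes, by 0.18 (standard error 0.019). Vgll2, a TEAD cofactor, and Myf5, a myogenic factor of myoblasts, rose by 0.53 and 0.53 (standard errors 0.023 and 0.019). With Per2, 6 of the 24 were lower and 5 higher (median −0.0052), with Myf6 lower by 0.29 (standard error 0.045) and Prox1, a homeobox factor of slow fibres, higher by 0.20 (standard error 0.045). Over all genes tested, 17.5% were lower and 18.6% higher with Per2. Of the 24, 6 were lower and 6 higher without Gfp libraries 1 and 2 (median 0.011).

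Of the genes next to the troponin genes, 3 of 11 tested were higher and 2 lower with Per1, and 4 of 10 were higher and 2 lower with Per2, also without Gfp libraries 1 and 2. Over all genes tested, 20.1% were higher and 20.6% lower with Per1, and 18.6% and 17.5% with Per2. Lsp1, which lies between Tnni2 and Tnnt3, rose by 0.096 with Per1 (standard error 0.021, adjusted p = 0.00229) and by 0.10 with Per2 (standard error 0.021, adjusted p = 0.00135), while Tnnt3 fell in both experiments and Tnni2 in the Per1 experiment. Lad1, between Tnni1 and Tnnt2, had a low level and was at −0.088 with Per1 (adjusted p = 0.132) and fell by 0.23 with Per2 (standard error 0.057, adjusted p = 0.00524).

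Myotube markers were lower beside the troponins in the Per1 experiment. By limma 8 of 10 were lower and 0 higher with Per1, also at an unadjusted p under 0.05, and their summed level was 21.32 to 21.37 with Gfp and 21.20 to 21.23 with Per1. With Per2, 2 were lower, 1 was higher and 7 did not pass, and the summed levels overlapped, at 20.90 to 21.02 with Gfp and 20.91 to 20.95 with Per2. Without Gfp libraries 1 and 2, 3 were lower and 0 higher (5 and 1 at an unadjusted p under 0.05), with a summed level of 20.91 to 21.02 in Gfp libraries 3 to 5. Their part in the troponin results was not tested, and this list includes genes of the sarcomere.

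Markers of other cell states and types were counted in the same way, beside the same shares of all genes called. Of 8 markers of proliferating myoblasts, 3 were higher and 1 lower with Per1 (summed level 16.59 to 16.72 with Gfp and 16.68 to 16.82 with Per1), and 3 were higher and 0 lower with Per2, also at an unadjusted p under 0.05 (16.78 to 16.93 and 16.89 to 17.05). Of 6 fibro-adipogenic markers, 2 were higher and 1 lower with Per1 (17.46 to 17.54 and 17.60 to 17.65), and 3 were higher and 1 lower with Per2 (16.95 to 17.09 and 17.15 to 17.21). Macrophage and leukocyte markers were low, at a summed level of 10.13 to 10.36 over all libraries, with 1 of 5 higher and 1 lower with Per1 and 2 of 6 lower with Per2 (0 higher there, also unadjusted), and Adgre1 was at 0 in every library of the Per2 experiment. Endothelial markers, at 9.09 to 9.88, were higher for 3 of 5 and lower for 1 with Per1 and lower for 3 of 5 with Per2 (0 higher, also unadjusted). Of the cardiomyocyte markers tested, 1 of 6 was higher with Per1 and 2 of 6 with Per2, and 0 were lower (at an unadjusted p under 0.05, 1 was lower with Per1 and 0 with Per2). Leaving out Gfp libraries 1 and 2, the Per2 counts of the proliferating, leukocyte and endothelial lists were unchanged, 3 fibro-adipogenic markers were higher and 0 lower, and 3 cardiomyocyte markers were higher and 0 lower, also at an unadjusted p. All cultures came from the same myoblast line, so these lists count genes and do not show that other cell types were present. The part of these genes in the troponin results was not tested.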

How the data were processed

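Poly(A) RNA of 20 myotube cultures was sequenced with a directional kit. The paper's methods describe alignment with STAR, counts for each gene and tests with DESeq2. The deposited values are regularized log2 values per the name of the table, and how they were made is not given in the sources used here beyond this. The labels name the build mm10 where the methods name GRCm39, and the read length and sequencer differ between them as well. GENCODE M39 supplied symbols for 51654 of the 55335 genes, matched without the version, which was identical for 35, and the lengths of transcripts. Within each experiment, limma 3.58.1 (R 4.3.3, trend, two-sided) was run on genes whose mean rlog over its 10 libraries reached 3, with Benjamini-Hochberg adjustment over all of them and a threshold of 0.05. DESeq2 and edgeR were not run, since they need counts. Members also had an exact permutation test. Summed levels of lists are log2 of the summed unlogged values. Members and gene lists were chosen with earlier results of these data known. Named genes were the members, the gene in each virus and, from each list and experiment, genes among the 6 called with the largest differences and the 2 uncalled with the highest mean, of which not all are named. For each member the 2 other genes with the highest smaller correlation were named, leaving out model-number names. Outside this rule, Lad1 and Myh7 with Per1, genes with Per2 values set beside their Per1 values, and genes overlapping a member were named after their values were seen. Alternatives changed the filter, scaling, trend, weights, call rule and block, and left out each library.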

Additional observations from a re-analysis of the deposited data

Results flagged for a closer look

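Of 32 groups of 5 libraries checked (8 genes in 4 groups), 1 held a library far from the others. Tnnt2 was at 17.04 rlog units in Per2 library 2 of the Per2 experiment, while the other Per2 libraries were all at 17.01. The Gfp libraries of that experiment were spread more widely for this gene, from 17.00 to 17.19. Chance flags about 1 in 20 groups.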

How the results depend on the processing

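With Per1 the count of 7 members lower stayed at 7 under each change of filter, scaling, trend, weights and block and without each library in turn. With no filter on low values the largest adjusted p among these 7 was 0.04955 (Tnni2, limma), beside 3284 genes lower over all. The count was 5 when groups also had to be without overlap, beside 14.8% of all genes lower. The count was 0 when a log2 difference of 0.5 was also required, beside 0.253%. With Per2 the count of 3 became 0 with no filter on low values (Tnnc2 adjusted p = 0.0504 by limma), beside 4.91% of all genes lower. It was 5 after median centring (24.8% of all genes lower) and 4 with array weights (3883 genes lower over all). Calls that also needed groups without overlap numbered 2 (12.5% of all genes), and calls with the fold requirement 0 (0.296%). Without each library in turn the count ran from 3 to 5 (5 without Gfp library 1, beside 17.1% of all genes). Without Gfp libraries 1 and 2, a choice made after seeing the data, it was 7. The causes were not tested. Under these settings 0 members were higher by limma. Cultures of the same number shared little variation (correlations of same-numbered deviations from −0.105 to 0.18), which cannot show whether they were paired by design. The replicate block gave 7 members lower with Per1, where it used 4 numbers, and 3 with Per2. Depth is unknown, which leaves counting error unmeasured.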
